A study of Homo sapiens with 3 samples.

Results

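The mRNAs of 10 blood clotting genes were followed in HepG2 cells, in their metformin-selected derivative HepG2/metR, and in HepG2/metR cells given oxamate. They were the fibrinogen chains FGA, FGB and FGG, the proteases and their precursors F2, F7, F10, F12 and PROC, and the cofactors F3 and F5. The genes were chosen by symbol, and all 10 were found among the 25270 gene entries of each deposited file. The study describes HepG2 as a human hepatocellular carcinoma line. HepG2/metR cells are HepG2 cells that survived metformin, an inhibitor of mitochondrial complex I, for more than 5 months. They served the study as a model that makes much lactate. Oxamate, which blocks lactate dehydrogenase, was added to HepG2/metR cells at 40 mM, and these cells were harvested after 24 h. Parental cells received no treatment, and whether metformin was in the HepG2/metR medium at harvest is not given in the sources used here. Total RNA was sequenced from 1 library per condition, 3 in all, so no difference below has a replicate check, and a difference between conditions cannot be told apart from one between cultures or libraries.

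Levels are given as FPKM, fragments per kilobase of transcript, scaled to library size, obtained from the deposited log2(FPKM + 1) values. FPKM is per length, so levels of different genes can be set side by side. Changes are differences of the deposited log2(FPKM + 1) values, a scale that understates the change of low genes. The files give no read numbers. The lowest values of genes with a single transcript lay on steps that put the libraries at about 24270000 fragments for parental HepG2, 29210000 for HepG2/metR and 29990000 for the oxamate-treated cells. These estimates assume an effective transcript length of the full length minus 200 bases. Only 64.3%, 63.8% and 66.9% of such low values fell within 0.1 of a whole number of fragments, so the numbers of fragments quoted below are approximate.

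The liver is the main source of the plasma clotting proteins. Tissue factor, encoded by F3, is a membrane protein that binds factor VIIa and starts clotting when blood meets the cells that carry it. The complex activates factor X, factor Xa with its cofactor factor Va turns prothrombin (F2) into thrombin, and thrombin cuts fibrinogen so that it polymerizes into fibrin. Protein C (PROC), once activated by thrombin bound to thrombomodulin, inactivates factor Va, while factor XII belongs to the contact pathway. Hepatocytes do not as a rule express much F3, which is typical of fibroblasts, epithelia and many tumour cells.

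In parental HepG2 cells all 10 genes were listed at 1 FPKM or more, and together they made up 0.332% of the summed FPKM of the library. FGG was the highest at 802 FPKM, in place 106 among all symbols, followed by FGA at 533, F2 at 247 and FGB at 163 FPKM. PROC, F10 and F5 were lower, at 48.8, 36.3 and 24.9 FPKM. F7, F3 and F12 closed the order at 6.89, 5.17 and 1.42 FPKM. A different order was seen in HepG2/metR cells. F3 led at 35.3 FPKM, and FGB and F10 were the only others listed at 1 FPKM or more, with 1.30 and 1.18. F12 followed at 0.460 FPKM, F2, F7 and F5 lay between 0.00374 and 0.0940, and FGA, FGG and PROC were listed at 0. The summed level of the 10 genes went from 1869 FPKM in parental cells to 38.3 FPKM in HepG2/metR and 45.7 FPKM with oxamate. Without replicates, neighbours in these orders cannot be said to differ beyond their spread.

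**Figure D1:**
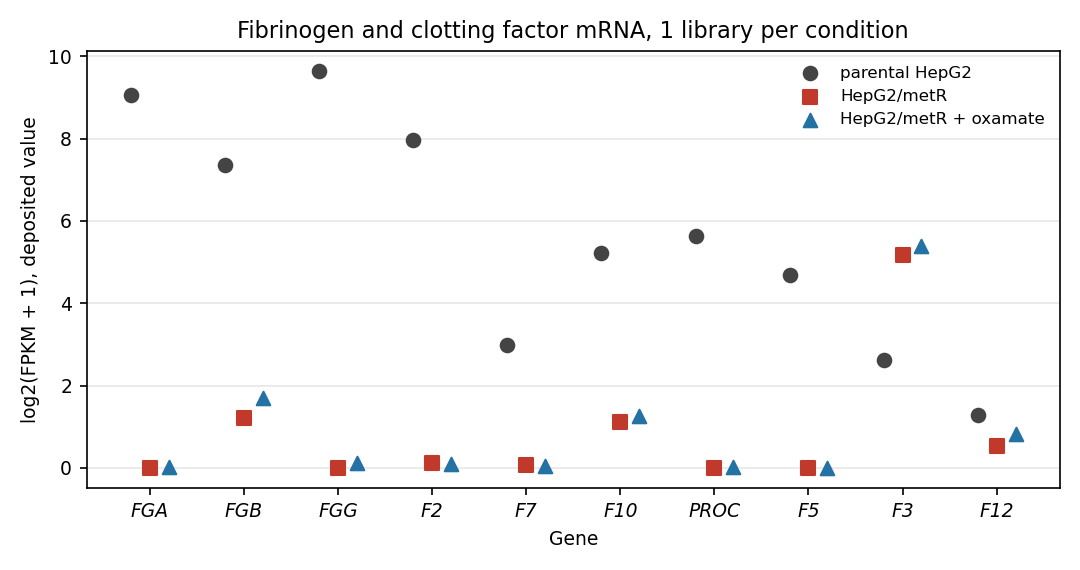
Deposited log2(FPKM + 1) value (vertical axis) of each of the 10 genes (horizontal axis) for parental HepG2 (circles), HepG2/metR (squares) and HepG2/metR with oxamate (triangles), 1 library each. FGA, FGB, FGG, F2, F7, F10, PROC and F5 are higher in the parental library than in both HepG2/metR libraries. F3 is higher in both HepG2/metR libraries, and F12 is low in each library.

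F3 held 0.277% of the summed level of the 10 genes in parental cells, 91.9% in HepG2/metR cells and 89.7% with oxamate. The fibrinogen genes held 80.2%, 3.39% and 5.19% of it. The remaining 6 genes held 19.6%, 4.66% and 5.06%. Fibrinogen mRNA therefore dominated the parental sum, and F3 mRNA dominated the sum in both HepG2/metR libraries.

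**Figure D2:**
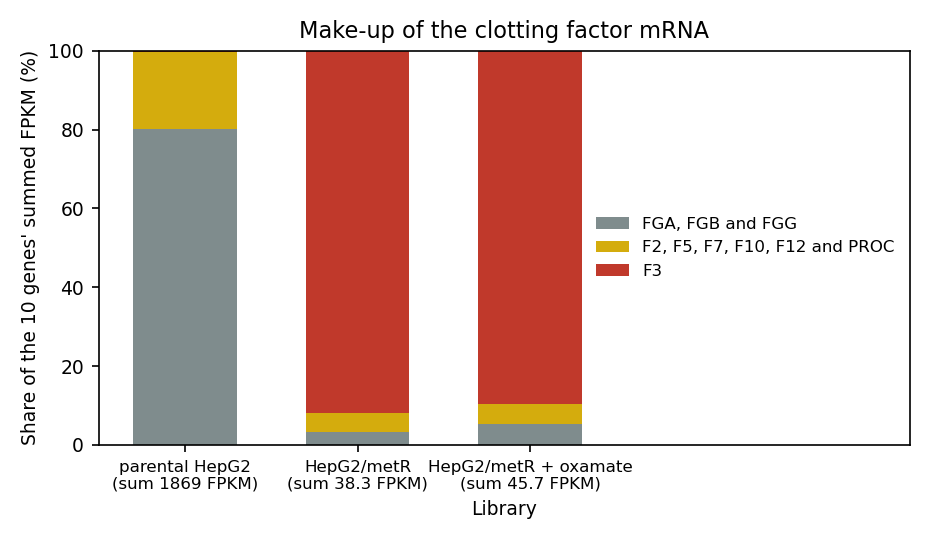
Share of the summed FPKM of the 10 genes (vertical axis, percent) held by the fibrinogen genes, by F3 and by the other 6 genes in each library (horizontal axis), with the summed FPKM under each bar. F3 takes 91.9% of the bar of HepG2/metR and 0.277% of that of parental HepG2, where it is too thin to see.

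Fibrinogen is a hexamer with a pair each of the Aα, Bβ and γ chains, which FGA, FGB and FGG encode. FGA was listed at 533 FPKM in the parental library, 0 in HepG2/metR and 0.0166 with oxamate. FGG was listed at 802, 0 and 0.0917 FPKM. FGA and FGG were thus at 0 in HepG2/metR cells, and the levels with oxamate correspond to only about 2 and 4 fragments, against about 45021 and 30365 fragments in parental cells. FGB stayed above 1 FPKM. It was listed at 163 FPKM in the parental library, 1.30 in HepG2/metR and 2.26 with oxamate, which corresponds to about 7006, 67 and 121 fragments. The FPKM of FGB was 125 times higher in parental than in HepG2/metR cells. FGB was the lowest of the chains in parental cells, with 10.9% of their summed FPKM against 35.6% for FGA and 53.5% for FGG, whereas in the oxamate-treated library it held 95.4%. On the log2(FPKM + 1) scale the changes of FGA, FGB and FGG in HepG2/metR cells were -9.06, -6.15 and -9.65.

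The fibrinogen genes are neighbours on chromosome 4, and their promoters are shown because the genes share this fall while FGB kept a measurable level. Each window runs from 250 bases before to 50 bases after the transcription start in RefSeq (GRCh38.p14), at chr4:154590693-154590992 on the minus strand for FGA, chr4:154562730-154563029 on the plus strand for FGB (the first of its 2 windows) and chr4:154612607-154612906 on the minus strand for FGG. Sequences run 5′ to 3′, and capitals mark CTGGGAA (the IL-6 responsive element of acute phase genes) and TTGCNNAA (a C/EBP motif), searched on both strands.
FGA: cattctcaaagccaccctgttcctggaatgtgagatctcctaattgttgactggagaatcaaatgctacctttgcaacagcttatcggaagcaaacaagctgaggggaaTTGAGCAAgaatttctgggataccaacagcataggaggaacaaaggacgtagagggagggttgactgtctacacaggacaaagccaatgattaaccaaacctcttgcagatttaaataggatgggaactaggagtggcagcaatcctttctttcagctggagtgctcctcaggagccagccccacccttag
FGB: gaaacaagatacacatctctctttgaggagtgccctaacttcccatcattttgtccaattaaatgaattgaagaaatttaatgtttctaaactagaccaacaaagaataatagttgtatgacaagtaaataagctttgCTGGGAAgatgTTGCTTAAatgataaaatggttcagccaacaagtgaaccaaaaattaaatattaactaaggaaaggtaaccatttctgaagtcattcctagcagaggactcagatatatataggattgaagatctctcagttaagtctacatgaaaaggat
FGG: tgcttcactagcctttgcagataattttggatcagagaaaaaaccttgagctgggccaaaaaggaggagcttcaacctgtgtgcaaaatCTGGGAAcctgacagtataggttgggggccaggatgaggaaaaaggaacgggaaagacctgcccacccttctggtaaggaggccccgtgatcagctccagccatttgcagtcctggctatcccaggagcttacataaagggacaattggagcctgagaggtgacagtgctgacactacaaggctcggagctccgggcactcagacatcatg
The FGB window held both motifs, without overlap between them. The FGA window held the C/EBP motif and the FGG window the IL-6 element. Of the 35116 promoter windows in the RefSeq table, 10.8% held the IL-6 element and 10.5% the C/EBP motif. The IL-6 element was found for 3 of the 10 genes, FGB, FGG and F10, and the C/EBP motif for 3, FGA, FGB and PROC. FGB and PROC have 2 windows each in the table, and a match in either was counted. A match describes the letters only and was not tested for binding.

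F2, F7, F10 and PROC encode the vitamin K-dependent proteases of the set, whose precursors are carboxylated in the liver before secretion. F2 was listed at 247 FPKM in the parental library, 0.0940 in HepG2/metR and 0.0737 with oxamate, or about 10927, 5 and 4 fragments. PROC was listed at 48.8, 0 and 0.0212 FPKM, or about 1864, 0 and 1 fragments. Both genes were high in the parental library and at a few fragments or none in the HepG2/metR libraries. F7, the protease that works with F3, was listed at 6.89 FPKM in the parental library, 0.0506 in HepG2/metR and 0.0371 with oxamate, and its parental level was 136 times that in HepG2/metR. F10 was listed at 36.3, 1.18 and 1.41 FPKM, or about 1162, 45 and 56 fragments. F10 therefore remained detectable in every library, at a parental level 30.8 times that in HepG2/metR cells. On the log2 scale F2, F7, F10 and PROC changed by -7.82, -2.91, -4.10 and -5.64 in HepG2/metR.

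F5 encodes the cofactor of factor Xa, and F12 the zymogen of the contact pathway. F5 was listed at 24.9 FPKM in the parental library, 0.00374 in HepG2/metR and 0 with oxamate, and the value in HepG2/metR corresponds to about 1 fragment. Its log2 change in HepG2/metR cells was -4.69. F12 was listed at 1.42, 0.460 and 0.774 FPKM, or about 64, 25 and 43 fragments. Its mean of 0.886 FPKM over the libraries was below the minimum of 1 FPKM used to keep a gene for counting. On the log2(FPKM + 1) scale F12 changed by -0.73, short of 2-fold, although the ratio of its FPKM in parental to that in HepG2/metR cells was 3.10.

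F3 was the exception. It was listed at 5.17 FPKM in the parental library, 35.3 in HepG2/metR and 41.0 with oxamate, or about 262, 2149 and 2566 fragments. Its FPKM was 6.82 times higher in HepG2/metR and 7.93 times higher in oxamate-treated than in parental cells, and its log2 change in HepG2/metR cells was 2.55. Among all symbols it moved from place 8429 to place 2289 and, with oxamate, to place 1798. The lowest value of the log2 change under any of the scalings and pseudocounts tried was 2.54. TFPI, which encodes the inhibitor of the complex of tissue factor and factor VIIa, was listed at 191, 117 and 108 FPKM. The ratio of F3 to TFPI mRNA was thus 0.0271 in the parental library, 0.301 in HepG2/metR and 0.381 with oxamate.

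The F3 promoter window, at chr1:94541710-94542009 on the minus strand (RefSeq, GRCh38.p14), is shown since F3 was the gene of the set that rose. Capitals mark TGANTCA, the motif of the AP-1 factors, and GGGCGG, the core of the Sp1 motif, searched on both strands.
F3: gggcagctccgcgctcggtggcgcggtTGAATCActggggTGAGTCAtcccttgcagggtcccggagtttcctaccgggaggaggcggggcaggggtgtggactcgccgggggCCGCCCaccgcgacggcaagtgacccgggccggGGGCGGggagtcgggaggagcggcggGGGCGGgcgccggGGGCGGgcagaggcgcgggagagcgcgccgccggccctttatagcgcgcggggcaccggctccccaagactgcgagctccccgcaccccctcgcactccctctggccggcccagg
It held 2 AP-1 motifs, starting at positions -223 and -210 from the transcription start, and 4 Sp1 motifs. The AP-1 motif was present in 7.71% of all windows and in none of the windows of the other 9 genes, and the Sp1 motif was present in 45.0% of all windows and, among the other 9 genes, in that of F10. With a GC content of 77.3% the F3 window lay above 94.1% of all windows, whose median was 58.7%. The FGB window printed above lay at the opposite end, with a GC content of 32.7%, and those of the remaining genes were between 47.0% and 60.3%.

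For the comparison of HepG2/metR with parental cells, which addressed the state that follows metformin selection, genes with a mean of at least 1 FPKM over the libraries were kept. This left 12210 symbols and 9 of the 10 clotting genes, all but F12. At least 2-fold lower in HepG2/metR cells were 8 of these 9 genes, against 17.6% of all symbols kept, and 1, F3, was at least 2-fold higher, against 16.6%. Over the 9 genes the median log2 change was -5.64, beside 0.02 over all symbols kept. FGA, FGG, F2, F7, PROC and F5 passed the filter through the parental library alone, so a fall was the one change they could show. At least 1 FPKM in the parental but under 0.1 FPKM in the HepG2/metR library was listed for 6 of the 10 genes, the same 6, against 6.02% of the symbols with at least 1 FPKM in parental cells. All 6 were also under 0.1 FPKM with oxamate.

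**Figure D3:**
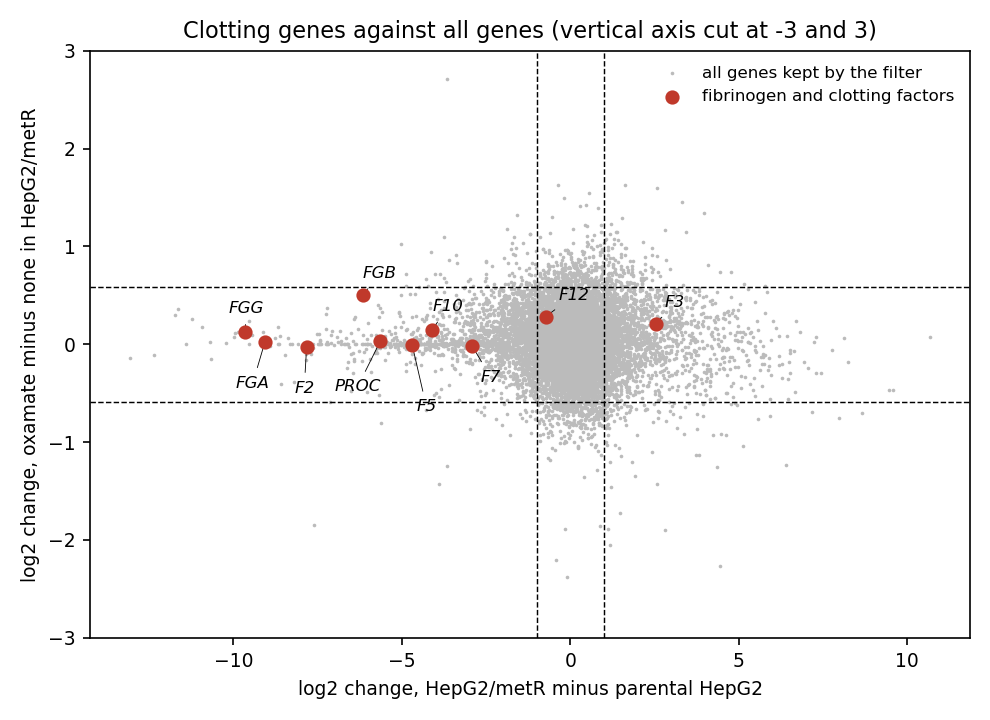
log2 change in HepG2/metR against parental cells (horizontal axis) and with oxamate in HepG2/metR cells (vertical axis) of the symbols kept (grey) and of the 10 clotting genes (red), with dashed lines at 2-fold and 1.5-fold. The clotting genes spread from -9.65 to 2.55 along the horizontal axis and from -0.03 to 0.50 along the vertical axis, and 34 small RNA genes beyond -3 or 3 on the vertical axis are not shown.

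The comparison of HepG2/metR cells with and without oxamate addressed the response to lowered lactate production. It shares the HepG2/metR library with the comparison above. None of the 9 clotting genes kept was at least 1.5-fold lower, against 3.82% of all symbols, and none was at least 1.5-fold higher, against 4.3%. FGA, FGG, F2, F7, PROC and F5 were under 0.1 FPKM in HepG2/metR. On the log2(FPKM + 1) scale a 1.5-fold fall was not open to them. Over the 9 genes the median log2 change was 0.03, beside 0.02 over all symbols. FGB had the largest value, 0.50, where 1.5-fold is 0.58, and the ratio of its FPKM with to that without oxamate was 1.74. F12, not among the genes kept, followed with 0.28, although its FPKM ratio was 1.68 and its change was 0.64 with a pseudocount of 0.1 and 0.75 without one. F3 was at 0.21, F10 at 0.14 and FGG at 0.13. The values of FGA, PROC, F5, F7 and F2 lay between -0.03 and 0.03. The call of FGB depended on the scale. It was 0.76 with a pseudocount of 0.1, where FGG also passed at 0.94, and 0.62 with the libraries scaled to the same total, a scaling under which 192 of all symbols were lower and 1184 higher with oxamate, against 466 and 525 as deposited. FGA, FGG and PROC, at 0 in HepG2/metR, were each above 0 with oxamate, which also held for 25.3% of the 395 symbols with 0 FPKM in HepG2/metR and at least 1 FPKM in parental cells. With the 1 to 4 fragments behind these values, no difference was detectable for FGA, FGG and PROC at this depth.

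The other genes of coagulation and fibrinolysis were taken as a list of 39, of which 30 were kept. At least 2-fold lower in HepG2/metR cells were 15 of the 30, against 17.6% of all symbols kept, and at least 2-fold higher were 8, against 16.6%, with a median log2 change of -1.05. Of the 15, 11 passed the filter through the parental library alone, among them all 5 inhibitors of coagulation, so a fall was the one change that these 11 could show. Among the 8, F8, THBD, PLAT and F2RL2 were under 1 FPKM in the parental library. They passed the filter through the HepG2/metR libraries, so a 2-fold fall on the log2(FPKM + 1) scale was not open to them. With oxamate 1 of the 30 was at least 1.5-fold lower, against 3.82% of all symbols. Another 1 was at least 1.5-fold higher, against 4.3%, and the median was 0.00. Such shares are close to those of all symbols. Most of the 11 genes above were too low in HepG2/metR to show a 1.5-fold fall on the log2(FPKM + 1) scale. When the libraries were scaled to the same total, 1 of the 30 was lower and 2 were higher with oxamate.

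Among the remaining vitamin K-dependent genes, PROS1, which encodes the cofactor of activated protein C, was listed at 45.2 FPKM in the parental library, 8.55 in HepG2/metR and 10.8 with oxamate. PROZ was listed at 3.85, 0 and 0 FPKM, and F9 at 0 in each library. PROS1 has a close pseudogene copy, so reads could be split between them. Of the other cofactor genes, F8 was listed at 0.137, 1.28 and 2.001 FPKM, and VWF did not exceed 0.0801 FPKM. On the log2(FPKM + 1) scale F8 was just past 2-fold in HepG2/metR cells, with a change of 1.01. The ratio of its FPKM in HepG2/metR to that in parental cells was 9.34. The contact pathway genes F11 and KNG1 fell from 11.8 and 3.64 FPKM to 0 in HepG2/metR cells and stayed at 0 with oxamate. F13B, the carrier subunit of factor XIII, was listed at 1.33 FPKM in parental cells and at 0 in both HepG2/metR libraries, and KLKB1 and F13A1 did not exceed 0.1004 FPKM in any library.

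The group of the vitamin K cycle and of factor transport holds enzymes and carriers that many cell types use. VKORC1, the vitamin K epoxide reductase, was listed at 110 FPKM in the parental library, 36.1 in HepG2/metR and 34.3 with oxamate, with a log2 change of -1.59 in HepG2/metR. MCFD2 and LMAN1, which together carry factors V and VIII out of the endoplasmic reticulum, were listed at 129, 93.3 and 97.5 FPKM and at 86.5, 49.5 and 52.8 FPKM. Of its 5 genes 2 were at least 2-fold lower, against 17.6% of all symbols, and none was 2-fold higher, against 16.6%, and their log2 changes ran from -1.59 to -0.03. All of them therefore kept levels of several FPKM in the HepG2/metR libraries, where the genes of their substrates and cargo differed in level. F2, F5, F7 and PROC were under 0.1 FPKM there, while F10, PROS1 and F8 were above 1 FPKM.

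Of the 9 inhibitors of coagulation 5 were at least 2-fold lower, 2 at least 2-fold higher and 2 between the thresholds, against 17.6% lower and 16.6% higher of all symbols. A2M, a broad protease inhibitor of plasma, was listed at 942 FPKM in the parental library, 0.0227 in HepG2/metR and 0.118 with oxamate. SERPINA5, the protein C inhibitor, was listed at 212 FPKM and then at 0 in both HepG2/metR libraries. PROCR, the endothelial receptor that presents protein C for activation, went the other way. It was listed at 1.36 FPKM in the parental library, 115 in HepG2/metR and 95.5 with oxamate, a log2 change of 5.62. The other gene that rose was THBD, the thrombomodulin gene, from 0 to 2.04 FPKM in HepG2/metR and to 3.02 with oxamate. It was named after its value had been seen, and at 0 in parental cells it could not show a fall. Receptors of protein C activation were thus at a higher mRNA level in HepG2/metR cells, where PROC itself was listed at 0.

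Of the 7 fibrinolysis genes kept, 4 were at least 2-fold higher and 2 at least 2-fold lower in HepG2/metR cells, against 16.6% and 17.6% of all symbols. SERPINF2, the plasma inhibitor of plasmin, was listed at 195 FPKM in the parental library, 0.288 in HepG2/metR and 0.598 with oxamate. PLAU, which encodes urokinase, was listed at 4.35, 107 and 44.4 FPKM and was the gene of the list that fell with oxamate, by 1.26 on the log2 scale. PLAT, the tissue plasminogen activator, was listed at 0.413, 34.1 and 23.8 FPKM. PLAUR, the receptor of urokinase, was listed at 3.22, 45.6 and 31.7 FPKM. Both were named after their values had been seen, and both rose, as did THBD, named in the same way. CPB2, also named after its value had been seen, was at least 2-fold lower like SERPINF2, at 50.4, 0.0235 and 0 FPKM. Among the receptors that thrombin and related proteases cleave, F2RL1 was listed at 38.4, 1.46 and 1.75 FPKM, F2R, the main thrombin receptor, at 10.6, 14.3 and 17.7 FPKM, and F2RL2 at 0.0532, 2.80 and 5.19 FPKM. F2RL2 was the gene that rose with oxamate, by 0.70. FGL1, a fibrinogen-related liver gene, was listed at 209, 0.0584 and 0.0287 FPKM, and FGL2 did not exceed 0.0602 FPKM.

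**Figure D4:**
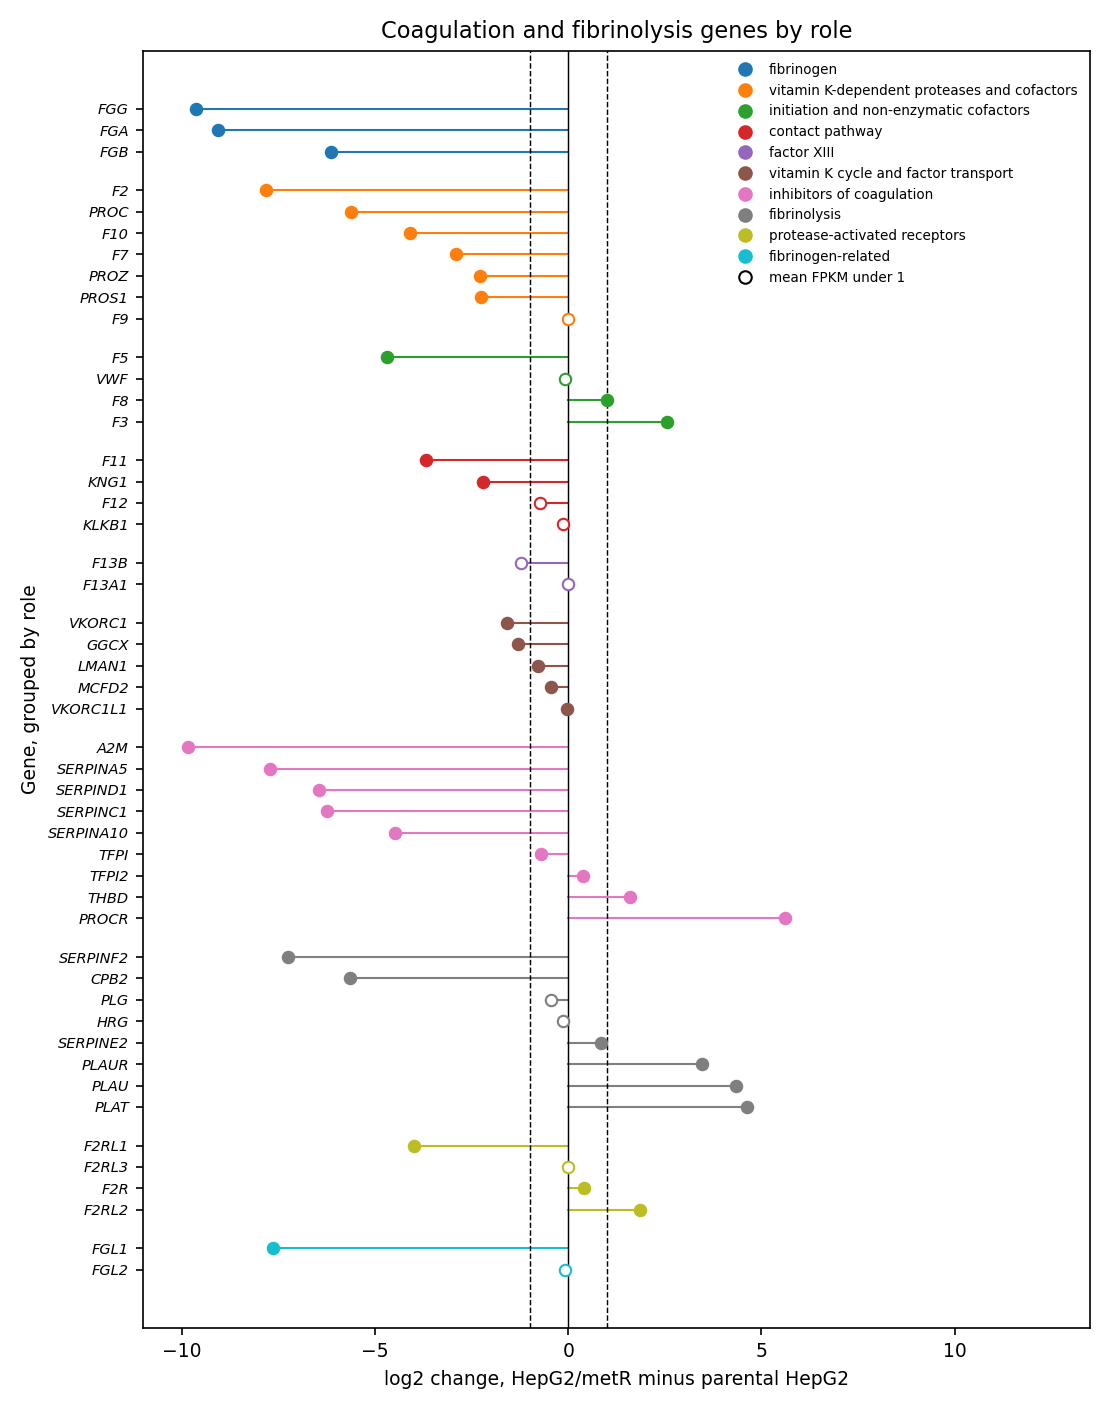
log2 change in HepG2/metR against parental cells (horizontal axis) of 48 genes of coagulation and fibrinolysis, the 10 clotting genes included, grouped by role (vertical axis), with dashed lines at 2-fold and open circles for a mean under 1 FPKM. The lowest point is A2M at -9.85, and the largest rises are those of PROCR, PLAT, PLAU and PLAUR.

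All libraries are labelled liver, so liver markers were read beside the clotting genes. All 10 liver markers, among them ALB, APOA1 and TTR, were at least 302 FPKM in parental cells. In HepG2/metR cells 9 of the 10 were under 1 FPKM, with APOA1 and TTR at 0, and their summed level was 35934 FPKM in the parental library, 12.98 in HepG2/metR and 9.29 with oxamate. The tenth, SERPINA1, was listed at 1709, 11.2 and 7.10 FPKM and made up most of the sums in the HepG2/metR libraries. Whether the HepG2/metR culture and the parental culture are the same cell line was not tested here. Fewer cells of a type and less RNA per cell cannot be told apart in such bulk RNA. Of the 8 regulators listed for liver clotting genes 6 were at least 2-fold lower, against 17.6% of all symbols, and all 6 passed the filter through the parental library alone. HNF4A was listed at 68.7, 0.0156 and 0.0153 FPKM and CEBPA at 74.3, 0.558 and 0.723 FPKM. CEBPB and STAT3 were listed at 13.3, 7.84 and 5.27 FPKM and at 32.8, 28.1 and 32.8 FPKM. The part of these regulators in the change of the clotting genes was not tested.

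Markers of other cell types were read in the same way. The 5 endothelial markers summed to 8.64 FPKM in parental cells, of which ESAM gave 8.37, and to 0.335 and 0.580 FPKM in the HepG2/metR libraries, with PECAM1 at 0 in both. Of the 5 platelet markers PF4, PPBP and GP9 were at 0 in each library, and the sums did not exceed 0.209 FPKM. The 6 fibroblast markers summed to 5.26, 7.77 and 15.2 FPKM, with 2 of them at 1 FPKM or more in each library and none at 0. The 5 leukocyte markers summed to 3453, 43.7 and 31.8 FPKM, of which LYZ gave 3415 in parental cells and CD68 gave 43.0 and 31.0 in the HepG2/metR libraries, with PTPRC at 0.0430 FPKM or less. F3 was listed at 5.17, 35.3 and 41.0 FPKM in the same libraries. Of the 6 fibroblast markers only LUM, at 0.172, 3.25 and 6.69 FPKM, and PDGFRB, at 3.43, 3.66 and 7.26 FPKM, passed the filter. LUM passed 2-fold in HepG2/metR, but under 1 FPKM in parental cells it could not show a 2-fold fall. With oxamate both were at least 1.5-fold higher, against 4.3% of all symbols kept. The part of the fibroblast markers in the level of F3 was not tested.

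Genes with the most similar values were found by the Euclidean distance over the 3 deposited log2 values. Nearest to F3 were PDGFC at a distance of 0.14, FOSL2 at 0.29, SLC25A24 at 0.30, UACA at 0.31 and NR2F2 at 0.34. PDGFC was listed at 5.61, 37.5 and 39.6 FPKM, and FOSL2 at 4.10, 33.7 and 39.1 FPKM. Nearest to the mean of FGA, FGB and FGG were FABP1 at 0.46, C3 at 0.48, ORM1 at 0.53, APOC2 at 0.59 and S100A1 at 0.60. FABP1 was listed at 490 FPKM in parental and at 0.2001 and 0.1997 FPKM in the HepG2/metR libraries. A distance over 3 libraries is a description of these libraries only.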

How the data were processed

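RNA-seq of 3 libraries was used, 1 for each condition. The authors deposited 1 log2 value per gene symbol, of the form log2(FPKM + 1), a form inferred from the values, since undoing it gave numbers of 6 significant digits or fewer in 100% of cases above 1. The submitters' processing notes name FastQC 0.11.5, STAR 2.5.1b, Cufflinks 2.2.1 and hg19. Annotation and strand are not given in the sources used here. Values were used as scaled by the authors. A gene was counted at a mean of at least 1 FPKM, and called at 2-fold (HepG2/metR against parental) or 1.5-fold (oxamate), the thresholds of the study. With 1 library per condition no test was made. The calculation was checked on simulated data with well-expressed genes only, so the check does not cover values near 0. Fragment numbers used the longest protein-coding transcript in GENCODE 29 and, for the steps, single-transcript genes of at least 800 bases. Promoters came from RefSeq (GRCh38.p14), not the build of the files, for all 10 genes. The genes and lists were chosen with earlier results of these data known, and the motifs, fragment estimates and neighbouring genes after the values had been seen. By rule, the text names all 10 genes, and in each role the 2 pathway genes highest in parental and in HepG2/metR cells, and the 5 nearest genes of F3 and of the fibrinogen mean. Some genes in the list counts are not reported here by name. The pseudocount was also set to 0.1 or left out, the filter was dropped or raised to a mean of at least 5 FPKM, and the values were rescaled by median-of-ratios, upper-quartile or same-total scaling, the last with and without small RNA genes. Each fold threshold was also replaced by the other. Python 3.11.15, numpy 2.4.6, pandas 2.3.3 and matplotlib 3.10.9 were used.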

Additional observations from a re-analysis of the deposited data

How the results depend on the processing

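Of 104 values recomputed for the counts and medians, 85 kept their side of the fold threshold or stayed within 1.5 times. No call changed direction. The rise of F3 in HepG2/metR stayed past 2-fold under each alternative for pseudocount and scaling, with log2 changes between 2.54 and 2.77, as did the fall of FGB, between -6.97 and -6.02. Without a pseudocount 5 of the clotting genes passed 2-fold downwards in HepG2/metR, since FGA, FGG and PROC at 0 gave no value. At least 1.5-fold higher with oxamate, against 0 as reported, were 2 clotting genes with a pseudocount of 0.1, 1 without a pseudocount, and 1 when the libraries were scaled to the same total, with or without small RNA genes. Of the other pathway genes, against 1 lower and 1 higher with oxamate as reported, 2 and 4 passed with a pseudocount of 0.1 and 3 and 4 without one, 2 were higher with each scaling to the same total, and 0 were higher at a mean of at least 5 FPKM or at 2-fold. At a mean of at least 5 FPKM, 5 pathway genes were higher in HepG2/metR, against 8. Their median log2 change in HepG2/metR, -1.05 as reported, was -0.58 without a pseudocount, -0.45 with no filter, -0.90 with upper-quartile scaling and -0.98 with the same total, with or without small RNA genes. Scaling to the same total moved the median of all symbols with oxamate from 0.02 to 0.17, or to 0.18 without small RNA genes. Upper-quartile scaling moved the median in HepG2/metR from 0.02 to 0.15. The values of FGA, FGG, F2, F5, F7 and PROC in the HepG2/metR libraries rest on about 5 fragments or fewer each. No paired analysis was possible because each condition has 1 library.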

Other observations

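The nearest protein-coding neighbours of the clotting genes, by gene order in RefSeq and among symbols in the files, were read after the values of the clotting genes had been seen. FGB, FGA and FGG lie side by side. PLRG1, the neighbour next to FGB, was listed at 21.0 FPKM in the parental library, 29.6 in HepG2/metR and 23.3 with oxamate, and LRAT, the neighbour next to FGG, at 0, 0.295 and 0.112 FPKM. The fall of the fibrinogen genes was thus not shared by PLRG1. On chromosome 13, F7 and F10 lie between MCF2L and PROZ. MCF2L was listed at 5.55, 0.00540 and 0.0158 FPKM and PROZ at 3.85, 0 and 0 FPKM. All 4 genes in this row fell at least 2-fold in HepG2/metR on the log2(FPKM + 1) scale, against 17.6% of all symbols kept. They were also lower with oxamate than in parental cells. MCF2L, F7 and PROZ were above 1 FPKM in the parental library alone, so a fall was the one change open to them. The neighbours of F2, ZNF408 and CKAP5, were listed at 10.1, 4.84 and 5.42 FPKM and at 33.9, 54.3 and 48.8 FPKM, and the neighbours of PROC, MAP3K2 and IWS1, at 6.83, 4.79 and 7.45 FPKM and at 42.6, 36.2 and 32.7 FPKM. On the log2(FPKM + 1) scale none of these 4 genes passed 2-fold downwards, against 17.6% of all symbols kept, with ZNF408 the lowest at -0.93. SLC19A2 and SELP, beside F5, were listed at 20.4, 8.51 and 8.89 FPKM and at 0 in each library, and SLC19A2 fell along with F5, with a log2 change of -1.17. PFN3 and GRK6, beside F12, were listed at 0 in each library and at 12.4, 21.8 and 15.5 FPKM. Both neighbours of F3 fell at least 2-fold on that scale in HepG2/metR, against 17.6% of all symbols kept. ABCD3 was listed at 63.1, 26.8 and 25.6 FPKM and SLC44A3 at 3.14, 1.0003 and 1.96 FPKM.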
